A study of Mus musculus with 2 samples.

Results

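The genes described here were 35 genes of glycolysis and of the response to hypoxia, 20 that take up glucose and turn it into exported lactate and 15 that cells are known to raise when oxygen is short, out of 27998 genes in the count tables. The list was drawn up by gene function, with earlier results of these data known, and their UMIs (unique molecular identifiers, each marking 1 captured RNA molecule) were summed over cells with more than 500 detected genes. The tables came from single-cell RNA-seq of 2 mouse lung tumors, TKO1 and TKO2, with 1 tumor per mouse and 1 droplet library per tumor. TKO mice (triple knockout) lose Rb, Trp53 and Rbl2 in the lung after an adenovirus with Cre under the CMV promoter is given through the airway, and develop small cell lung cancer, a neuroendocrine cancer. Both tumors were Rb-/-; Trp53-/-; Rbl2-/- with the Rosa26 membrane-Tomato/membrane-GFP reporter, with a genetic background mixed from 129/SvOla, 129/SVJ and C57BL/6, and were taken 7 months after induction from mice of 8 to 9 months. All cells had passed through enzymatic digestion at 37 °C and a sort of live cells. There was no tumor without the deletions and no normal lung, and with 1 library per tumor the tumor, the mouse and the library cannot be told apart. No test was possible, so values are given with exact 95% intervals, which cover counting error only.

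Glycolysis splits glucose into pyruvate and yields ATP without oxygen. When oxygen falls, the prolyl hydroxylases of the EGLN family stop marking hypoxia-inducible factor (HIF) for destruction, and HIF, bound to short DNA elements near its targets, raises transcription of glucose transporters, most glycolytic enzymes, lactate dehydrogenase A, angiogenic factors and mitophagy receptors. Many tumors, small cell lung cancer among them, also run glycolysis at a high rate when oxygen is present, which is known as the Warburg effect.

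TKO1 had 4514 barcodes and 5285038 UMIs, and TKO2 had 3816 barcodes and 8291430 UMIs. After the filter, 3193 and 3568 cells remained, with medians of 1223 and 1960 UMIs per cell, and 11 barcodes of retained cells occurred in both tumors. Clusters were found in each tumor without the 35 genes. Neuroendocrine-like cells made up 2618 cells of TKO1 (7 clusters) and 3381 of TKO2 (9 clusters). UMIs of 19 and 20 of the 20 neuroendocrine markers were found in them, with summed levels of 24183 CPM (UMIs of a gene or list per 1000000 UMIs of the cells summed) in TKO1 and 2208.5 CPM in TKO2, so the label rests on a much lower marker level in TKO2. Of these clusters, 3 had a marker of another class among their 10 leading genes, namely cluster 4 of TKO1 (Dcn), and clusters 0 (Vwf) and 7 (Tppp3) of TKO2. The other cells were 106 club-like and 95 macrophage-like cells in TKO1, 121 macrophage-like cells in TKO2, and the unnamed clusters 2 of TKO1 (374 cells) and 10 of TKO2 (66 cells). Beside 16 macrophage markers, the macrophage-like clusters had 4 (TKO1) and 7 (TKO2) T and NK cell markers at least 4-fold up. T and NK cell markers summed to 524 and 1128 CPM there, against 55223 and 44446 CPM for macrophage markers, so other immune cells may be among them. The neuroendocrine markers summed to 3943 CPM in macrophage-like and 7082 CPM in club-like cells of TKO1. In TKO2 they summed to 830 CPM in macrophage-like cells and 9010 CPM in cluster 10. Of these, only the 830 CPM lay below the 2208.5 CPM of neuroendocrine-like cells of TKO2. The shared name rests on comparisons within each tumor, not on a like marker level. UMIs of the deleted genes were still counted in neuroendocrine-like cells, at 74.5 and 15.2 CPM for Rb1, 52.7 and 63.0 CPM for Trp53 and 9.85 and 1.80 CPM for Rbl2 in TKO1 and TKO2, and a UMI count does not show whether the deleted part of the gene was read.

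The promoters of the 35 genes were searched for the HIF core, written ACGTG or GCGTG, on either strand of the 250 bases before the transcription start. RefSeq promoters (build GRCm38.p6) matched 32 of the 35 genes, all but Slc2a3, Bnip3l and Ndrg1. The core was present in at least 1 promoter of 28 of the 32 genes (87.5%), 16 of 19 for glycolysis and 12 of 13 for the hypoxia response, and in 41.5% of 27025 genes. Taken apart, ACGTG occurred in 18 of the 32 genes and 18.5% of all genes, and GCGTG in 21 of the 32 and 30.9% of all. The 45 promoters of the 32 matched genes had a median GC content of 60.4%, against 52.4% over all 32851 promoters of the 27025 genes. Neither GC content nor the number of promoters per gene was corrected for. Windows in annotated exons were kept, and the only Vegfa window with cores has 218 of its 250 bases there. A core is a match of letters and not a bound site. The 6 promoters below are shown 5′ to 3′ on the strand of the gene, with cores in capitals (a core on the other strand reads CACGT or CACGC), because they belong to 4 hypoxia-response genes described between the tumors and across cells (Bnip3, Egln3, P4ha1, Adm), to the glycolysis gene with the most UMIs in TKO2 (Ldha), and to the member with the most hypoxia-response UMIs, which has no core in this window (Mif).
Bnip3 (chr7:138909507-138909756, minus strand): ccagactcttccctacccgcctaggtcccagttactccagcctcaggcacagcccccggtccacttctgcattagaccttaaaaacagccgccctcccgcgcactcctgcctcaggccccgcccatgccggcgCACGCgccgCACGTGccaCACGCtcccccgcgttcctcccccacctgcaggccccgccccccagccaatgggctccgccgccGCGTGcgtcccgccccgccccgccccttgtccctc
Egln3 (chr12:54203875-54204124, minus strand): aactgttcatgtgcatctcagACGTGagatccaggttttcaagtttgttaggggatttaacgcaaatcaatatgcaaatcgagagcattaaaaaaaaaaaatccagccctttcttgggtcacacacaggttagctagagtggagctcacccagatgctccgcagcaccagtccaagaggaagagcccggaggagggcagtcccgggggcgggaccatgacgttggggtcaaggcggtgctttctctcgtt
P4ha1 (chr10:59323046-59323295, plus strand): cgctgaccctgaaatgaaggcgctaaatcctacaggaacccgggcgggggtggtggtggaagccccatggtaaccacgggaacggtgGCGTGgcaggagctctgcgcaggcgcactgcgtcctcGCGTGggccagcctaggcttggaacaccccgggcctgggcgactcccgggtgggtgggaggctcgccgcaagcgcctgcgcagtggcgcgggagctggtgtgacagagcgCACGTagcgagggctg
Adm (chr7:110627407-110627656, plus strand): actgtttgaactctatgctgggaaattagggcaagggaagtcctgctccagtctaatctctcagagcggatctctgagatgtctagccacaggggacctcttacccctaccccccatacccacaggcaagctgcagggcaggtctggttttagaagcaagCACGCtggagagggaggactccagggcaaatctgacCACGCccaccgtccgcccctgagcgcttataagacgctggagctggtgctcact
Ldha (chr7:46845554-46845803, plus strand): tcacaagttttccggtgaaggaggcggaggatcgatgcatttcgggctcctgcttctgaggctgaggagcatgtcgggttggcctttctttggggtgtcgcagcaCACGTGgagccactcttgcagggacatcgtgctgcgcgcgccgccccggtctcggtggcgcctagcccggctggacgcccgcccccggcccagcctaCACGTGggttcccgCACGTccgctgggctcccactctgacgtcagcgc
Mif (chr10:75860278-75860527, minus strand): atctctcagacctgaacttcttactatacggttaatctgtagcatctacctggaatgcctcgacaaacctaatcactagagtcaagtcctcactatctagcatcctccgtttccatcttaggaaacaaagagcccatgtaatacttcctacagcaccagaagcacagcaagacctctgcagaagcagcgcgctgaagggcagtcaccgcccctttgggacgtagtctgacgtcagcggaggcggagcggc
The Bnip3 and Ldha windows held 5 cores each, P4ha1 held 3, Adm 2 and Egln3 1, where overlapping cores on opposite strands (CACGTG) count separately. The Ldha window lies before 1 of its 2 RefSeq starts, inside the span of the gene and outside every exon of the GENCODE M21 annotation, and 13 bases of the Bnip3 window lie in an annotated exon.

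The 35 genes took 1.73% of all UMIs of neuroendocrine-like cells in TKO1 (1.72% to 1.74%) and 1.27% in TKO2 (1.26% to 1.28%). Glycolysis genes accounted for 1.15% in TKO1 and 0.810% in TKO2, and hypoxia-response genes for 0.580% and 0.463%. A few genes carried these sums. Aldoa, the aldolase that cleaves fructose bisphosphate, and Ldha, which reduces pyruvate to lactate, held 29.0% and 28.2% of the glycolysis UMIs in TKO1, and 16.8% and 30.9% in TKO2. Mif, a secreted cytokine whose gene is a known HIF target, held 46.1% of the hypoxia-response UMIs in TKO1 and 77.0% in TKO2. Without Mif the summed shares were 1.46% and 0.916%. The totals differ in other gene classes as well: ribosomal protein genes took 10.6% of UMIs in TKO1 and 23.1% in TKO2, and with mitochondrial and ribosomal protein genes left out of the total the shares of the 35 genes were 1.95% and 1.68%. Genes of the early response to tissue dissociation took 1.80% in TKO1 and 0.252% in TKO2, and the part of cell handling in the difference between the tumors was not tested.

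Between the tumors, each gene's log2 ratio of TKO1 to TKO2 was centred on the median over all genes with at least 10 UMIs, which was 0.37. A gene was called higher or lower at 2-fold or more on that scale. Of 32 members compared, 13 were at least 2-fold higher in TKO1, against 23.0% of all 12853 genes, and 1 was at least 2-fold higher in TKO2, against 18.5% of all genes. The 13 split into 6 of 18 glycolysis genes and 7 of 14 hypoxia-response genes. The median centred ratio was 0.40 for glycolysis and 1.05 for the hypoxia response, where the median of all genes is 0, and 26 of the 32 genes lay above 0. Without the 3 clusters led in part by markers of another class, 12 members were at least 2-fold higher in TKO1 and 1 in TKO2, and the share of all genes is not given for that setting. Slc2a3, Ldhb and Car9 had too few UMIs to compare: Slc2a3 had 0 UMIs in both tumors, which allows levels of up to 0.982 CPM in TKO1 and 0.475 CPM in TKO2, Ldhb had 7 and 1 UMIs, and Car9 had 2 and 0.

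**Figure D1:**
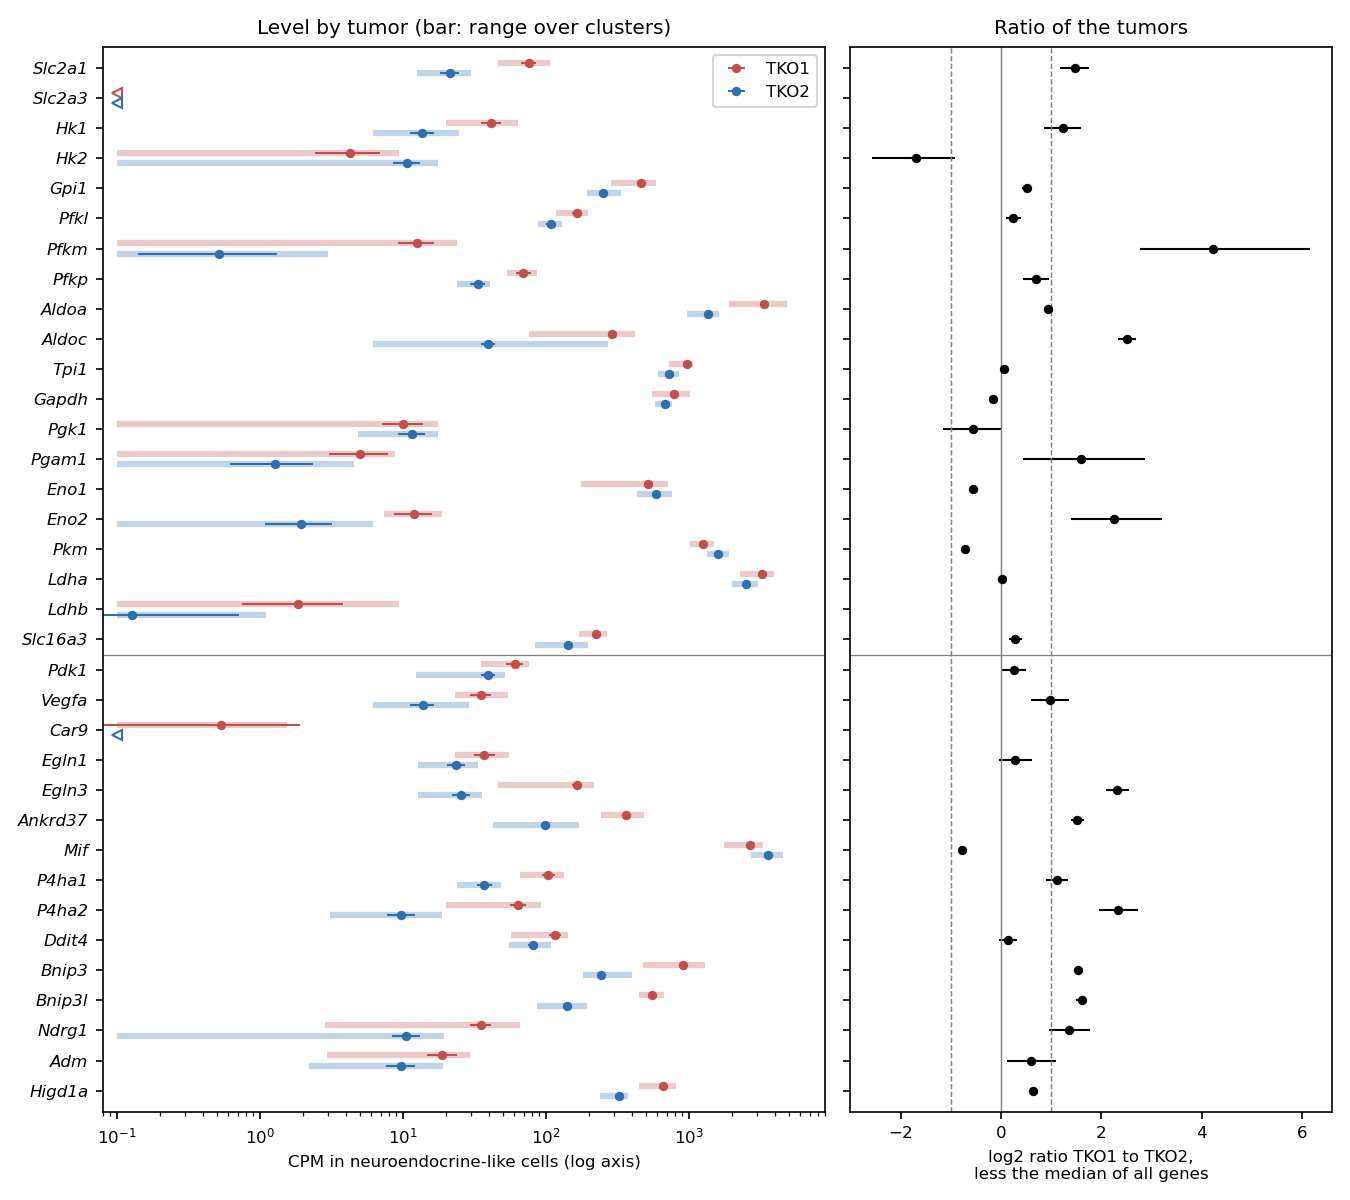
Level of each of the 35 genes in neuroendocrine-like cells of TKO1 and TKO2 (CPM, log axis), with thin lines for exact 95% counting intervals and pale bars for the range over the clusters of a tumor, and the centred log2 ratio of TKO1 to TKO2 with its interval. Triangles at the left edge stand for 0 UMIs, range bars that reach 0 start at 0.1 CPM, the grey line parts glycolysis from hypoxia-response genes, and dashed lines mark 2-fold; most hypoxia-response genes lie to the right of 0, and Mif lies to the left.

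At glucose entry and the first steps, Slc2a1, Hk1 and Pfkm were at least 2-fold higher in TKO1 and Hk2 lower. Slc2a1 (ENSMUSG00000028645, chr4:119108711-119137983), the main glucose transporter of hypoxic cells, stood at 75.9 CPM in TKO1 (67.3 to 85.2) and 21.3 CPM in TKO2 (18.1 to 24.8), a centred log2 ratio of 1.47 (1.18 to 1.75). Its cluster range was 46.0 to 106 CPM in TKO1 and 12.5 to 30.2 CPM in TKO2, so every cluster of TKO1 lay above every cluster of TKO2. The hexokinases, which trap glucose by phosphorylation, went in opposite directions. Hk1 had 41.3 CPM in TKO1 and 13.7 in TKO2 (centred 1.23, 0.86 to 1.60), and 1 of 16 alternative settings left it just short of 2-fold (0.98). Hk2 had 4.26 CPM on 16 UMIs in TKO1 and 10.7 CPM on 83 UMIs in TKO2 (centred −1.70, −2.57 to −0.91) and was the single member called higher in TKO2. Of the 3 phosphofructokinases, which catalyse the committed step, the liver form Pfkl led in both tumors with 165 and 108 CPM (centred 0.25). The platelet form Pfkp had 69.7 and 33.4 CPM (centred 0.69), and the muscle form Pfkm had 12.5 CPM on 47 UMIs and 0.515 CPM on 4 UMIs (centred 4.23, 2.78 to 6.17). Pfkm thus had the largest ratio of the members, on the fewest UMIs in TKO2 among the called genes.

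Aldoa (ENSMUSG00000030695, chr7:126795234-126800751) had 3339 CPM in TKO1 (3281 to 3398, clusters 1926 to 4884) and 1360.1 CPM in TKO2 (1334 to 1386, clusters 973 to 1619). Its centred ratio of 0.93 (0.89 to 0.96) fell just short of 2-fold, and 5 of 16 alternative settings put it past that line. Its brain-type paralog Aldoc had 289.8 CPM in TKO1 and 39.4 CPM in TKO2 (centred 2.51, 2.33 to 2.70). Aldoc also had an uneven spread within TKO2, where the 69 cells of cluster 9 held 271 CPM and the mitotic cluster 3 held 6.21 CPM. Gpi1, which isomerises glucose phosphate, had 465 and 251 CPM (centred 0.52).

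From triose phosphate to pyruvate, 2 of 7 genes, Eno2 and Pgam1, were at least 2-fold higher in TKO1, both on few UMIs. Tpi1 had 972 CPM in TKO1 and 724 in TKO2 (centred 0.06, −0.00 to 0.12) and Gapdh had 791 and 685 CPM (centred −0.16, −0.23 to −0.10). Eno1, the widely used enolase, had 520.3 and 593 CPM (centred −0.56), and Pkm, pyruvate kinase, had 1260.0 CPM in TKO1 (1224 to 1296) and 1599 CPM in TKO2 (1571 to 1628; centred −0.71, −0.76 to −0.66). Eno1 and Pkm stayed below 0 in all 16 alternative settings without reaching 2-fold, whereas the sign of Tpi1 and Gapdh changed with the setting. Eno2, the neuron-type enolase used as a neuroendocrine marker, had 11.98 CPM on 45 UMIs and 1.93 CPM on 15 UMIs (centred 2.26, 1.39 to 3.21). Pgam1, a mutase, had a centred ratio of 1.60 (0.43 to 2.87) on 19 and 10 UMIs, and Pgk1, a kinase that yields ATP, had −0.57 on 38 and 90 UMIs. Both were counted at 1.29 to 11.6 CPM, far below their neighbours in the pathway, and why so few of their molecules were counted was not tested.

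The lactate steps lay close to the median of all genes. Ldha (ENSMUSG00000063229, chr7:46841475-46855627) had 3249 CPM in TKO1 (3191 to 3307) and 2502 CPM in TKO2 (2467 to 2537), and its centred ratio was 0.01 (−0.02 to 0.04). Slc16a3, the transporter that exports lactate, had 224 and 143 CPM (centred 0.28, 0.15 to 0.42). Neither passed 2-fold under any of the 16 settings.

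Among hypoxia-response genes, both members of the mitophagy pair were higher in TKO1. Bnip3 (ENSMUSG00000078566, chr7:138890836-138909519), a receptor that marks mitochondria for removal, had 918 CPM in TKO1 (888 to 949) and 245 CPM in TKO2 (234 to 257; centred 1.54, 1.45 to 1.62). Bnip3l, its paralog, had 551 CPM (527 to 575) and 139.9 CPM (132 to 149; centred 1.61), and its clusters did not overlap between the tumors. The oxygen sensors differed in size of ratio. Egln3, a HIF prolyl hydroxylase that HIF itself induces, had 164 and 25.5 CPM (centred 2.32, 2.09 to 2.56), while Egln1, the main oxygen sensor, had 37.3 and 23.7 CPM (centred 0.28, −0.04 to 0.61). Both collagen prolyl hydroxylase subunits were higher in TKO1: P4ha1 had 104 and 37.2 CPM (centred 1.12, 0.89 to 1.34) and P4ha2 had 63.9 and 9.79 CPM (centred 2.34, 1.96 to 2.73). P4ha1 fell short of 2-fold in 2 of 16 alternative settings (lowest 0.69).

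Ankrd37, a small ankyrin-repeat protein induced by HIF, had 366 and 98.96 CPM (centred 1.52, 1.39 to 1.65), again without overlap of clusters, and fell short of 2-fold in 1 of 16 alternative settings (0.90). Ndrg1, a stress-responsive gene, had 35.1 and 10.6 CPM (centred 1.36, 0.96 to 1.78). Vegfa, the main angiogenic factor, had 35.1 and 13.8 CPM (centred 0.98, 0.60 to 1.36) and lay at the 2-fold line, which it passed in 8 of 16 alternative settings. Pdk1, which keeps pyruvate out of mitochondria, Ddit4, an inhibitor of mTOR signalling, the vasodilator peptide gene Adm and the mitochondrial protein gene Higd1a had centred ratios of 0.25, 0.14, 0.60 and 0.64, short of 2-fold. Adm ran from −0.64 to 1.24 over 16 alternative settings and passed 2-fold in 3, Ddit4 also changed sign, and Higd1a passed 2-fold in 1. Mif (ENSMUSG00000033307, chr10:75859353-75860240) ran the other way, with 2673 CPM in TKO1 (2621 to 2726) and 3564 CPM in TKO2 (3522 to 3607; centred −0.78, −0.82 to −0.75). On the centred scale, 5 of the 32 members were higher in every cluster of TKO1 than in every cluster of TKO2 (Slc2a1, Pfkp, Ankrd37, P4ha1 and Bnip3l), against 7.38% of all genes, and 2 were lower in every cluster (Pkm and Mif), against 9.82%. Counts can be uncertain for 11 of the 35 genes, Gpi1, Aldoa, Tpi1, Gapdh, Eno1, Pkm, Ldha, Ldhb, Mif, Bnip3 and Higd1a, because the last 400 bases of a transcript match an annotated transcript of another gene at 95% identity or more over at least 90 bases. For 4 of them, Gpi1, Aldoa, Gapdh and Eno1, a matched gene is itself in the count tables. Gapdh matched 110 other genes, 3 of them in the count tables.

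Other genes of the same pathways, from fixed lists, lay in both directions between the tumors. Of all 12853 genes, 23.0% were at least 2-fold higher and 18.5% lower in TKO1. Of 33 other genes of glucose metabolism compared, 9 were at least 2-fold higher and 6 lower in TKO1 (median 0.46), and among them the glycogen branching enzyme Gbe1 had 55.4 and 13.4 CPM and the lactate importer Slc16a1 had 11.2 and 37.4 CPM. Of 34 other hypoxia-response genes, 13 were higher and 6 lower (median 0.31). Of 9 genes of the oxygen-sensing machinery, 2 were higher and 0 lower (Epas1 and Ep300). Dissociation-response genes were higher in 12 of 15 and lower in 1 (median 2.38), proliferation genes higher in 0 of 18 and lower in 7 (median −0.84), and integrated stress response genes higher in 4 of 15 and lower in 7 (median −0.28).

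Within each tumor the share of the 35 genes varied between cell classes. In TKO1 it was 0.835% in club-like cells (0.795% to 0.876%) and 0.819% in macrophage-like cells (0.772% to 0.868%), against 1.73% in neuroendocrine-like cells. In TKO2 it was 0.745% in macrophage-like cells (0.710% to 0.782%), against 1.27%. These classes lay below every neuroendocrine-like cluster of their tumor, whose shares ran from 1.26% to 2.17% in TKO1 and from 1.06% to 1.48% in TKO2. In club-like cells the 9 club markers alone summed to 278401 CPM. They count in the total there and press down the share of every other gene, which was not corrected for.

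**Figure D2:**
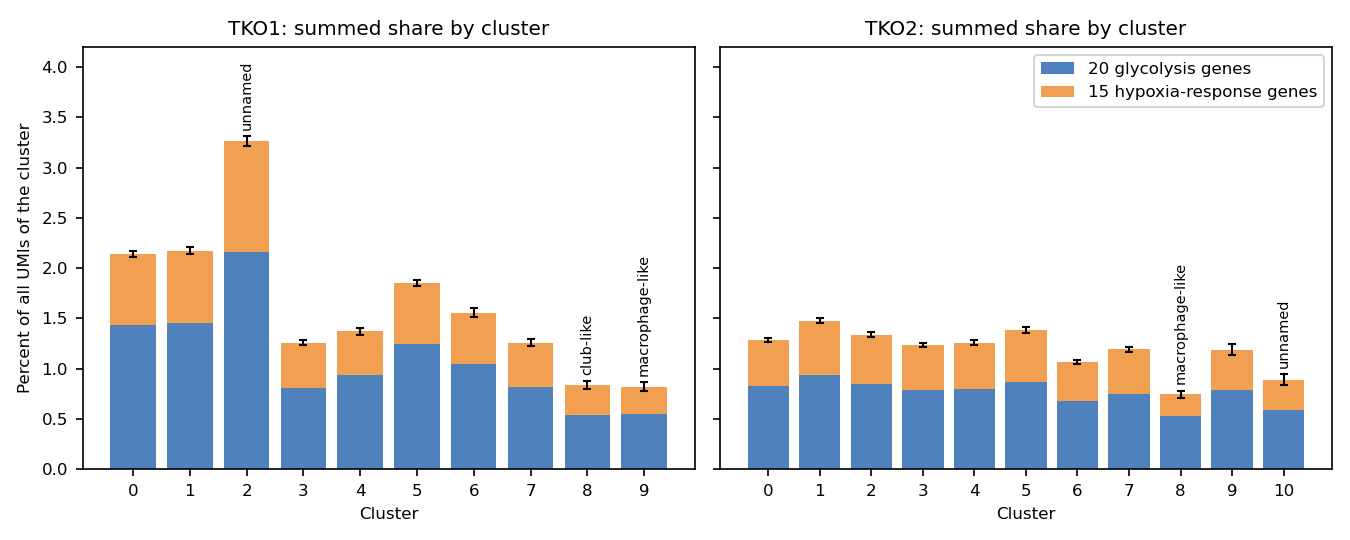
Percent of UMIs from the 35 genes in each cluster of TKO1 and TKO2, stacked as glycolysis genes (blue) and hypoxia-response genes (orange), with exact 95% intervals of the sum; unlabelled clusters are neuroendocrine-like. Cluster 2 of TKO1 reaches 3.26%, and the macrophage-like and club-like clusters lie below 0.9%. Totals include the club markers, which sum to 278401 CPM in club-like cells.

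Gene by gene, 18 of 33 members were at least 2-fold lower in macrophage-like than in neuroendocrine-like cells of TKO1 (22.6% of all genes were) and 2 were higher (12.3%). In TKO2, 8 of 32 were lower (19.7%) and 3 higher (16.1%). The median centred ratio of the members was −1.18 in TKO1 and −0.35 in TKO2. Genes with 0 UMIs were set at 3, which gave Pgk1, Pgam1 and Eno2 ratios above 0 in macrophage-like cells of TKO1. The counts and medians rest on few cells. A stricter minimum asked that equal shares give at least 10 UMIs in the smaller group. It moved the median of all genes from −0.0006 to −0.74 in TKO1 and from −0.009 to −0.63 in TKO2. The median centred ratio of the members was then −0.46 and −0.21. By it 4 of 19 were lower in TKO1 (19.6% of all genes) and 1 of 15 in TKO2 (12.6%). Bnip3 was among the 4, with 158 CPM in macrophage-like cells of TKO1 on 22 UMIs, against 918 CPM. Ankrd37 was the gene of TKO2, with 17.8 CPM on 4 UMIs, against 98.96 CPM. Neuroendocrine markers summed to 3943 CPM in macrophage-like cells of TKO1, against 24183 CPM in neuroendocrine-like cells, and to 830 against 2208.5 CPM in TKO2. The part of RNA from neuroendocrine-like cells in the member levels of macrophage-like and club-like cells was not tested. Higher in macrophage-like cells of both tumors by the lower minimum were Hk2 and Ldhb, whereas under the stricter minimum 0 members were higher in either tumor (13.9% and 11.1% of all genes). Hk2 had 43.1 CPM in macrophage-like cells of TKO1 (6 UMIs) and 40.0 CPM in those of TKO2 (9 UMIs). Ldhb, the lactate dehydrogenase form that favours pyruvate, had 115 CPM (16 UMIs) and 44.4 CPM (10 UMIs), against 1.86 and 0.129 CPM in neuroendocrine-like cells, where 7 UMIs and 1 UMI were counted, so that it entered the comparison only through the cells in which it was higher.

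Club-like cells, the secretory cells of the airway, had 8 of 33 members at least 2-fold lower than neuroendocrine-like cells of TKO1 (16.5% of all genes) and 4 higher (11.9%). Without centring, where the log2 ratios of all genes lie 0.34 lower, 16 were lower, and the share of all genes is not given for that scale. With the stricter minimum, 2 of 22 were lower (Eno1 and Slc16a3, 11.2% of all genes) and 1 higher (P4ha2, 8.31%). That minimum moved the median of all genes from −0.34 to −0.83. Slc16a3 had 20.1 CPM on 4 UMIs against 224 CPM. Ldhb, among the 4 higher, had 358 CPM on 71 UMIs, against 7 UMIs in the 2618 neuroendocrine-like cells together. It thus entered this comparison only through the cells in which it was higher. P4ha2 had 186 CPM on 37 UMIs against 63.9 CPM, Adm 70.5 CPM on 14 UMIs against 18.9 CPM, and Vegfa 85.6 CPM on 17 UMIs against 35.1 CPM. Cluster 10 of TKO2 had 8 club, 6 ciliated and 16 neuroendocrine markers, and a summed share of 0.888% (0.835% to 0.942%). In it, 14 of 31 members were lower (21.9% of all genes) and 3 higher (12.9%). Under the stricter minimum 2 of 14 were lower (7.23% of all genes) and 1 higher (8.55%). The median of all genes was then −0.35, against 0.60 before.

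**Figure D3:**
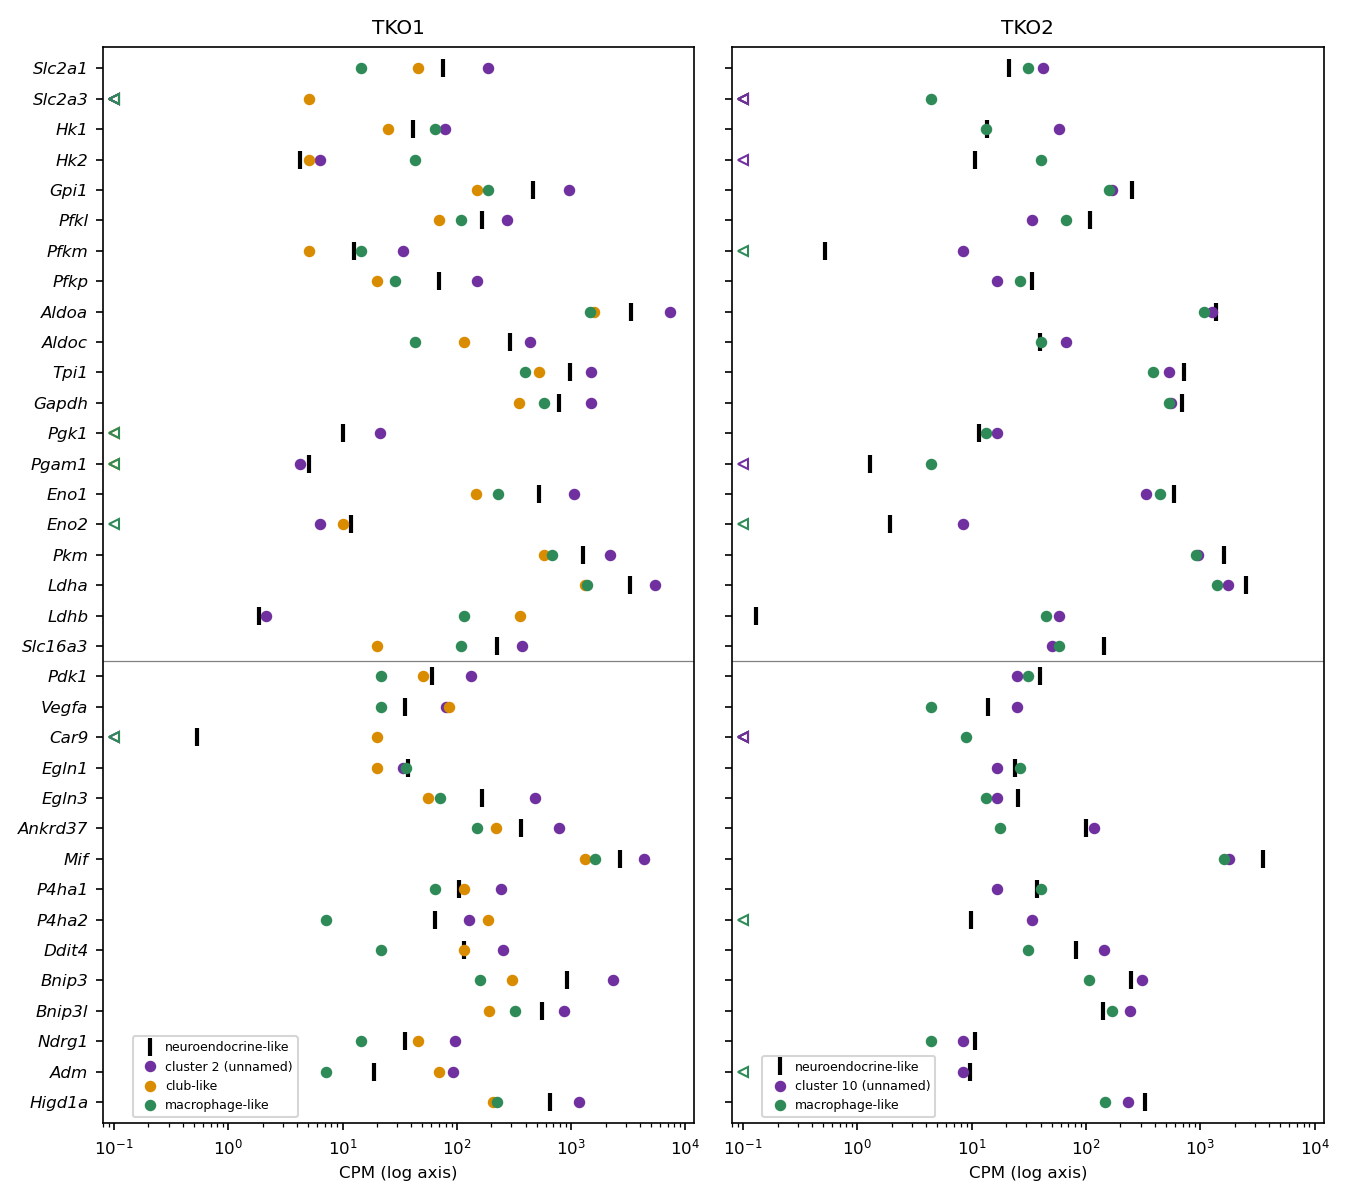
Level of the members (CPM, log axis) in neuroendocrine-like, macrophage-like and club-like cells and in the unnamed clusters of each tumor. Triangles at the left edge stand for 0 UMIs and the grey line parts glycolysis from hypoxia-response genes. Ldhb is lower in neuroendocrine-like cells (7 UMIs in TKO1 and 1 in TKO2) than in macrophage-like cells, whereas Bnip3 is lower in macrophage-like cells. In cluster 2 of TKO1 Ldhb rests on 1 UMI.

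Cluster 2 of TKO1 held the highest share of any cluster, 3.26% (3.21% to 3.32%), with 2.16% from glycolysis and 1.11% from hypoxia-response genes. It had 17 neuroendocrine markers and 4 ciliated markers, and was led by Fam183b, Cfap126 and Trib3. Ciliated markers summed to 958 CPM, against 178 in neuroendocrine-like cells. Neuroendocrine markers summed to 23935 CPM, against 24183 CPM, so their level was alike in both. At resolution 0.4 no cell of TKO1 was left unnamed. The main values of neuroendocrine-like cells leave cluster 2 out. Against the neuroendocrine-like cells, 17 of 32 members were at least 2-fold higher (5.90% of all genes were) and 0 lower (10.1%), 7 of 18 in glycolysis and 10 of 14 in the hypoxia response. The stricter minimum gave 17 of 27 (2.25% of all genes). Bnip3 had 2318 CPM (2182 to 2459) against 918 CPM, Aldoa had 7335 CPM (7092 to 7583) against 3339 CPM, and Egln3 had 486 CPM (425 to 553) against 164 CPM. Adm showed the largest centred ratio of the called members, 2.37, with 93.3 CPM (67.8 to 125) against 18.9 CPM. Mif reached 4374 CPM against 2673 CPM (centred 0.78), short of 2-fold.

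Some other fixed lists also stood apart in cluster 2, where 5.90% of all genes were at least 2-fold higher and 10.1% lower. Only the 35 genes were left out of the clustering, so genes of these lists could shape the cluster. Trib3, Ddit3, Nupr1 and Ero1l were among its 10 leading genes. Other genes of glucose metabolism lay near the median of all genes, with 3 of 33 higher and 1 lower (median 0.04). Of 31 other hypoxia-response genes, 10 were at least 2-fold higher and 1 lower, and the called genes included Fam162a (706 against 302 CPM), Ero1l (231 against 68.7 CPM) and Bhlhe40 (153 against 63.9 CPM). Integrated stress response genes were higher in 7 of 14 and lower in 1, with Nupr1 at 3202 against 834 CPM and Ddit3 at 346 against 71.9 CPM. Proliferation genes were lower in 15 of 18 and took 0.0774% of UMIs, against 0.352% in neuroendocrine-like cells. The dissociation-response list, by contrast, had 1 of 14 genes higher (Klf4) and took 2.11% of UMIs, against 1.80%. What part the stress response, the cilium genes or the lack of dividing cells play in the level of the 35 genes was not tested.

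Neuroendocrine-like clusters spread by 1.73 times in TKO1 and 1.39 times in TKO2. The highest shares were in clusters 1 (2.17%) and 0 (2.14%) of TKO1 and in cluster 1 of TKO2 (1.48%). The lowest were in clusters 7 and 3 of TKO1 (both 1.26%) and cluster 6 of TKO2 (1.06%). Cluster 3 of TKO1 and cluster 6 of TKO2 were led by mitotic genes, and proliferation genes took 1.15% and 1.04% of their UMIs. The other cluster led by mitotic genes, cluster 3 of TKO2, had 0.925% from proliferation genes and 1.23% from the 35 genes, close to the 1.27% of all neuroendocrine-like cells of TKO2. The part of cell division in these shares was not tested. Cluster 7 of TKO1, led by Nefm, Neurog3 and Nefl, had 0.269% from proliferation genes and 17.3% from ribosomal protein genes, against 8.79% to 10.8% from the latter in the other neuroendocrine-like clusters of TKO1. Bnip3 ranged from 481 to 1303 CPM over the clusters of TKO1 and from 181 to 404 CPM over those of TKO2, where cluster 5, led by Cited4, was highest. In TKO2 cluster 5, Bnip3 itself was among the 10 leading genes although it had not entered the clustering.

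To compare single cells, 1000 UMIs were drawn at random from every neuroendocrine-like cell, which kept 1887 cells of TKO1 and 3020 of TKO2 and left out 731 and 361 shallower cells. A cell of TKO1 held on average 5.79 hypoxia-response UMIs (SD 4.14) and 11.6 glycolysis UMIs (SD 7.46), and a cell of TKO2 held 4.62 (SD 2.79) and 8.01 (SD 4.75). The Fano factor, the variance over the mean, which is 1 for pure counting error, was 2.96 for the hypoxia-response sum and 4.80 for the glycolysis sum in TKO1, and 1.68 and 2.81 in TKO2. The median over all genes that averaged 0.05 UMIs or more per drawn cell was 1.17 in TKO1 and 1.10 in TKO2, and over the 22 and 15 members past that average it was 1.28 and 1.23. These medians are of single genes, not of sums, and the Fano factors were not corrected for the number of UMIs. Among the members Aldoa had the highest value in both tumors (2.86 and 1.87), followed in TKO1 by Ldha (2.31) and Mif (2.04) and in TKO2 by Bnip3 (1.74) and Ldha (1.70).

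Cells with more hypoxia-response UMIs also held more glycolysis UMIs in both tumors. Over cells, Pearson's r between both sums was 0.65 in TKO1 and 0.40 in TKO2, over cells that share a library and a depth. It was 0.57 to 0.69 within single clusters of TKO1 and 0.31 to 0.49 within those of TKO2, and 0.56 and 0.34 with Mif left out of the hypoxia-response sum. In TKO1 the mean glycolysis count went from 5.40 UMIs in the 240 cells with 0 or 1 hypoxia-response UMIs to 21.9 UMIs in the 143 cells with 13 or more. In TKO2 it went from 5.69 UMIs (325 cells) to 16.4 UMIs (40 cells) over the same ranges.

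**Figure D4:**
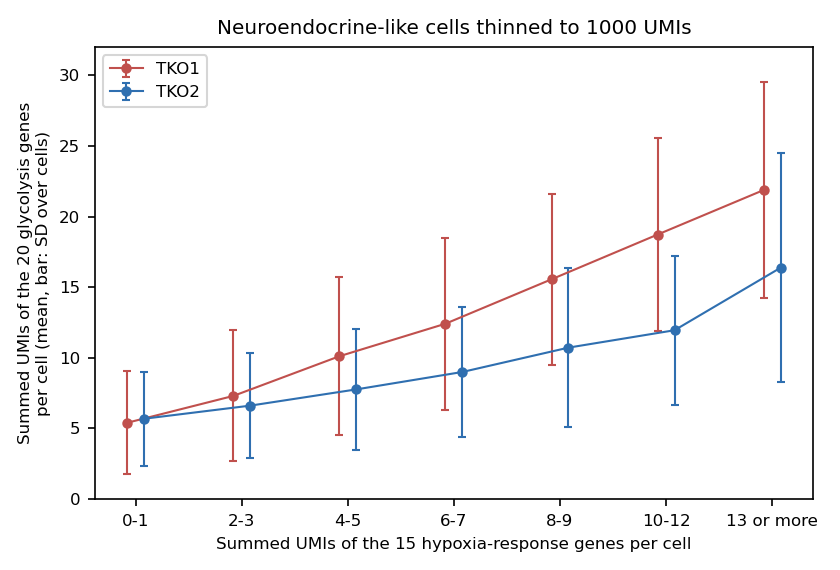
Mean glycolysis UMIs per cell (y axis, at 1000 UMIs per cell) against hypoxia-response UMIs of the same cell (x axis, in ranges) for neuroendocrine-like cells of TKO1 and TKO2, with bars for the SD over cells. In both tumors the mean is higher in each further range, from 5.40 to 21.9 UMIs in TKO1 and from 5.69 to 16.4 UMIs in TKO2.

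Of the glycolysis genes with enough UMIs, 11 of 12 in TKO1 and 8 of 9 in TKO2 correlated with the hypoxia-response sum above the 99th percentile of the other genes (0.08 in both tumors). Aldoa (r = 0.54 and 0.29) and Ldha (0.49 and 0.32) led. Gapdh had 0.28 in TKO1 and 0.06 in TKO2, and Slc2a1 had 0.08 in TKO1. The hypoxia-response genes were each set against the sum without themselves. Of those with enough UMIs, 9 of 10 in TKO1 and 3 of 6 in TKO2 passed that percentile. Their median r was 0.19 in TKO1 and 0.08 in TKO2, against 0.26 and 0.15 for the glycolysis genes. Few other genes reached r of 0.2. In TKO1 there were 6, namely Bsg (0.44), the chaperone of the lactate exporter, Mt1 (0.35), Itm2b (0.30), Fam162a (0.22), Ftl1 (0.22) and Selenbp1 (0.22). In TKO2 there was 1, Igfbp2 (0.28). Other summed lists had lower r than glycolysis, and their mean UMIs per cell (in parentheses) differed from its 11.6 and 8.01. Other hypoxia-response genes had r of 0.27 in TKO1 (1.93) and 0.11 in TKO2 (1.32), and other glucose metabolism genes −0.02 (1.69) and 0.02 (1.09). Integrated stress response genes had 0.17 (1.77) and 0.04 (1.12), dissociation-response genes 0.02 (17.9) and −0.07 (2.70), and proliferation genes −0.21 (3.33) and −0.14 (5.13). Mitochondrial genes had −0.10 (5.78) and −0.14 (9.90), and ribosomal protein genes −0.01 (106) and 0.21 (231). The r values were not corrected for the number of UMIs.

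The upper end of this range was then compared with the other cells, using all UMIs of each cell. The high range was set at 13 or more hypoxia-response UMIs in TKO1 (143 of 1887 cells, 7.58%) and 9 or more in TKO2 (280 of 3020, 9.27%), and it is a range of a count, not a cell type. In TKO1, 39 cells lay at the lower end and 48 just below it, and in TKO2 116 and 174. Median depth was 1342 UMIs in the high range and 1419 in the other cells of TKO1, and 2161.5 and 2099.5 in TKO2. Hypoxia-response genes chose these cells, so their levels only describe them: Bnip3 had 2753 against 763 CPM in TKO1 and 743 against 192 CPM in TKO2, Egln3 475 against 140.4 CPM and 64.8 against 21.9 CPM, P4ha1 264 against 88.1 CPM and 66.3 against 33.7 CPM, and Adm 57.2 against 14.46 CPM and 45.2 against 6.48 CPM. Mif held 1376 of the 3231 hypoxia-response UMIs of the high range in TKO1 and 4061 of 5622 in TKO2, so the range of TKO2 is largely a count of Mif. Its levels were 6051 against 2403 CPM in TKO1 and 6116 against 3336 CPM in TKO2. Over cells, r of Mif with the sum of the other hypoxia-response genes was 0.34 in TKO1 and 0.09 in TKO2.

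Glycolysis genes did not choose the cells. Their share was 2.18% in the high range (2.12% to 2.24%) and 1.08% in the other cells of TKO1, a ratio of 2.01, and 1.22% (1.19% to 1.25%) and 0.773% in TKO2, a ratio of 1.58. At least 2-fold higher were 8 of 18 glycolysis genes in TKO1 (6.44% of all genes were) and 4 of 17 in TKO2 (3.78%), and 0 were lower in either tumor (9.58% and 6.81%). Some of these calls rest on few UMIs in the high range, with intervals that span 0. They were Pgk1 in TKO1 (4 UMIs, −0.91 to 2.62), and Pgam1 (2 UMIs, −1.85 to 3.75) and Eno2 (3 UMIs, −0.81 to 3.64) in TKO2. With the stricter minimum of UMIs, the counts were 9 of 12 in TKO1 (1.27% of all genes) and 1 of 12 in TKO2 (Pfkl, 0.337%). That minimum moved the median of all genes in TKO1 from 0.012 to −0.065. Among the 9 were Slc2a1, Tpi1, Gapdh and Ldha, which fell just short of 2-fold on the main scale (0.938, 0.996, 0.955 and 0.943). Aldoa had 6702 CPM (6369 to 7047) in the high range of TKO1 against 3047 CPM (2983 to 3111), a centred log2 ratio of 1.12 (lower bound 1.05), and had 2322 against 1263 CPM in TKO2 (centred 0.95, 0.87 to 1.03). Ldha had 6011 against 3100 CPM in TKO1 (centred 0.94) and 3803 against 2375 CPM in TKO2 (centred 0.75), and Pkm had 2155 against 1199 CPM (centred 0.83) and 2345 against 1539 CPM (centred 0.68).

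Ratios of single steps are given below for both tumors. The high ranges begin at different counts (13 hypoxia-response UMIs in TKO1 and 9 in TKO2), so the sizes are not like for like. Slc16a3 had 449 against 208 CPM in TKO1 (centred 1.09, 0.78 to 1.40) and 239 against 133 CPM in TKO2 (centred 0.92, 0.67 to 1.17). Gapdh had a centred ratio of 0.95 (0.79 to 1.12) in TKO1 and 0.32 (0.19 to 0.45) in TKO2. Aldoc had 0.73 (0.42 to 1.03) in TKO1 and −0.34 (−1.08 to 0.31) in TKO2, on 20 UMIs in the high range. Hk2 had 27.1 against 9.42 CPM in TKO2 on 18 UMIs (centred 1.59, 0.75 to 2.37) and 1 UMI in the high range of TKO1. Pfkl was higher in TKO2 (197 against 98.4 CPM; centred 1.07, 0.79 to 1.34) and had a centred ratio of 0.36 (−0.11 to 0.79) in TKO1. Intervals of Slc16a3 and of Hk2 overlapped between the tumors, and those of Pfkl met at 0.79. Differences between the tumors were not tested.

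**Figure D5:**
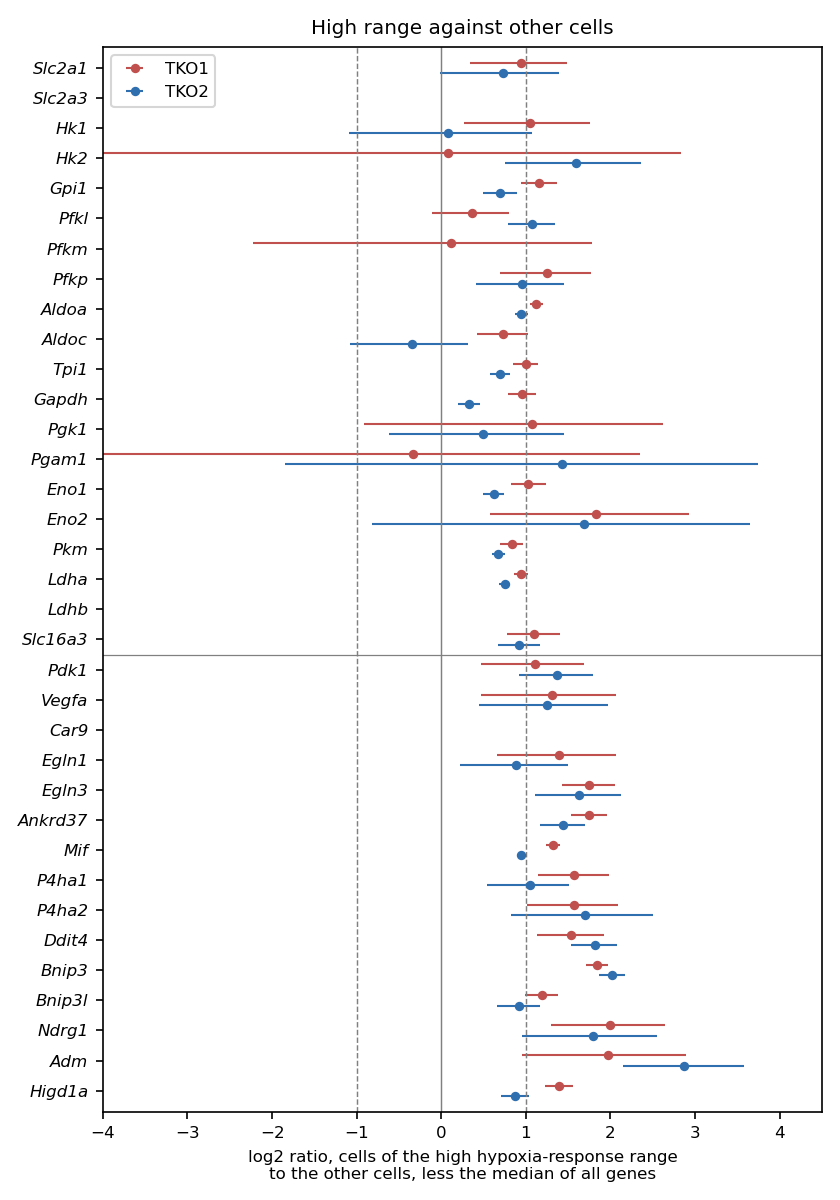
Centred log2 ratio of each member between cells in the high range of hypoxia-response UMIs and the other neuroendocrine-like cells, in TKO1 and TKO2, with exact 95% intervals clipped at −4 and 4.5. Hypoxia-response genes defined the range and are drawn as a description, genes with under 10 UMIs in all or 0 in the high range are not drawn, the grey line parts the lists, and the dashed lines mark 2-fold; Aldoa and Ldha lie between 0.75 and 1.12 in both tumors.

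Beside the glycolysis genes, other hypoxia-response genes summed to 3302 against 1865 CPM in the high range of TKO1 and 1639 against 1304 CPM in TKO2. Other genes of glucose metabolism summed to 1565 against 1670 CPM in TKO1 and 1146 against 1081 CPM in TKO2. Integrated stress response genes had 2770 against 1741 CPM in TKO1 and 1333 against 1156 CPM in TKO2, and proliferation genes had 2357 against 3858 CPM and 4553 against 5513 CPM. Dissociation-response genes had 18821 against 17436 CPM in TKO1 and 2155 against 2522 CPM in TKO2. Macrophage markers summed to 30.8 against 67.5 CPM and 15.1 against 19.6 CPM, and ciliated markers to 242 against 173 CPM and 16.6 against 26.8 CPM. Cells of the high range occurred in every neuroendocrine-like cluster, at 1.73% to 12.8% in TKO1 and 5.03% to 12.7% in TKO2. Outside those clusters, 87 of 264 thinned cells of cluster 2 passed the limit of TKO1 (33.0%, 27.3% to 39.0%), against 0 of 92 club-like cells (exact upper limit 3.93%) and 1 of 80 macrophage-like cells, and 1 of 112 macrophage-like cells and 3 of 49 cells of cluster 10 (6.12%) passed that of TKO2.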

How the data were processed

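Single-cell RNA-seq of 1 tumor from each of 2 TKO mice was made by the authors with the 10x Chromium system. The authors deposited raw UMI counts per gene and barcode, with no normalization. Their processing notes name Cell Ranger, Seurat and mm10 without versions, and this series has 1 library per tumor. The 35 members, the gene lists and the settings were chosen with earlier results of these data known. Lists were fixed by function, and from each list up to 5 genes past 2-fold with the most UMIs could be named, with all members, up to 10 genes by correlation with r of at least 0.2, and the 3 genes leading a cluster. Dcn and Tppp3, which lie lower among the leading genes, were named after their values were seen, and the 6 printed promoters were chosen with the results known.

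Cells were kept above 500 detected genes and below 10% mitochondrial UMIs. Each tumor was clustered alone with Seurat 5.3.0 in R 4.3.3 (1000 variable genes without the members, 10 components, resolution 0.8). A cluster was named from at least 3 markers 4-fold above the other cells, and more of them than of any other type. For neuroendocrine-like cells, markers had to be 2-fold above immune-like cells. A cluster with more neuroendocrine markers than markers of its own type was left unnamed, as were cluster 2 of TKO1 and cluster 10 of TKO2. The club-like cluster of TKO1 had 8 club and 8 neuroendocrine markers, a tie, and kept its name. Scrublet (scanpy 1.11.5) called 1 of 3193 and 2 of 3568 cells, which is too few to have worked, so an alternative removed the 117 and 146 cells with the highest scores.

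UMIs were summed over cells and compared in Python 3.11.15 (numpy 2.4.6, scipy 1.17.1, pandas 2.3.3), with Poisson, Clopper-Pearson and conditional binomial 95% intervals. Genes needed 10 UMIs over both groups, 0 UMIs were set at 3, and a group at 0 was never called the higher one, a step added after seeing the data. TMM factors came from edgeR 4.0.16, used for scaling only. Cells were thinned with seed 1. The high range began at the smallest number of hypoxia-response UMIs that at most 10% of cells reached. Near copies were searched with blastn 2.17.0 among annotated transcripts only. Positions are GENCODE M21 (GRCm38, the same build as mm10), and figures were drawn with matplotlib 3.10.9. The steps were tested on simulated data. Alternatives covered the cell filter, clustering, doublets, cells summed, scaling, minimum UMIs, and thinning.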

Additional observations from a re-analysis of the deposited data

Results flagged for a closer look

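Barcodes with 500 or fewer detected genes entered no comparison, and the 35 genes were still counted in them. They took 1.32% of UMIs in the 1321 such barcodes of TKO1 (1.30% to 1.35%, 9518 of 718380 UMIs) and 0.875% in the 248 of TKO2 (0.833% to 0.918%, 1629 of 186149 UMIs). Both values lay between those of the macrophage-like and the neuroendocrine-like cells of the same tumor. Whether these barcodes held small cells, damaged cells or free RNA was not tested.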

How the results depend on the processing

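The count of members at least 2-fold higher in TKO1 ran from 9 (more than 1000 detected genes) to 17 (all retained cells, or CPM without centring) around 13, and Hk2 was the member higher in TKO2 under every setting run. Without centring, the log2 ratios of all genes between the tumors lie 0.37 higher. The counts of members in this section stand without the share of all genes under the same setting, and are not read as a result about the members. Over 1000 genes, 536 neuroendocrine-like and 25 macrophage-like cells were named in TKO1, and 202 cells were left unnamed. In TKO2 the numbers were 1068, 46 and 724. No result changed direction among those called. The summed share in neuroendocrine-like cells was 1.68% with cells over 200 genes in TKO1, 1.46% and 1.23% over 1000 genes in TKO1 and TKO2, 1.90% at resolution 0.4 or with cluster 2 in TKO1, 1.82% and 1.25% over all retained cells, 1.63% and 1.25% without the cluster with the highest share, 1.78% and 1.28% without clusters led by a marker of another class, 1.95% and 1.68% with a total that leaves out mitochondrial and ribosomal protein genes, and 1.46% and 0.916% without Mif. TKO1 stayed above TKO2 in each. Members lower in macrophage-like cells numbered 6 in TKO1 and 3 in TKO2 over 1000 genes, with 0 higher in TKO2. They numbered 4 and 1 where equal shares give at least 10 UMIs in the smaller group, with 0 higher in both. Both settings compared fewer genes or cells, and the stricter minimum also moved the median of all genes, to −0.74 and −0.63. Their parts in the lower counts were not told apart. Under that minimum 2 were lower and 1 higher in club-like cells, and without centring 16 were lower. The correlation of both sums was 0.53 and 0.27 at 500 UMIs per cell, 0.75 and 0.50 at 2000, and 0.56 and 0.34 without Mif. Glycolysis members higher in the high range of TKO2 fell from 4 to 1 without the highest Scrublet scores and to 1 under the stricter minimum. Except where the setting itself left fewer genes or cells, or moved the median of all genes, the cause was not tested. Over 200 or over 1000 genes no club-like cluster was found. Cluster 2 added, clusters led by another class left out and the stricter minimum were chosen after seeing the data. No paired analysis was possible because each tumor has 1 library and no replicate.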
